A study of Mus musculus with 6 samples.

Results

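The genes of cyclic nucleotide signalling were followed in cultured aortic smooth muscle cells exposed to TWEAK, a cytokine of the tumour necrosis factor family. Members were chosen by gene symbol alone: every adenylyl cyclase (Adcy), guanylyl cyclase (Gucy), phosphodiesterase (Pde, without Pde4dip), subunit of protein kinase A (Prkac and Prkar) and protein kinase G (Prkg) in the authors' table. The rule took 43 of the 14927 listed genes: 14 cyclases, 21 phosphodiesterases and 8 kinase subunits or kinases. The rule uses no measured value. Relatives with no row in the table were not analysed here.

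Total RNA was sequenced from 6 libraries of vascular smooth muscle cells grown from aortas of wild-type C57BL/6 mice and used at passages 3 to 7. In the 3 TWEAK libraries the cells received recombinant TWEAK at 100 ng/mL for 24 h in medium with 0.5% serum, and in the 3 vehicle libraries they received vehicle. All cells of both groups had first been kept for 24 h in low serum. The table's columns number 3 experiments, each with 1 TWEAK and 1 vehicle library. Nothing in the labels says how many animals stand behind an experiment or whether the experiments used separate isolations, so p-values measure the spread between these libraries, which may be technical.

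Adenylyl cyclases make cyclic AMP after hormones such as adrenaline, prostacyclin or adenosine act on receptors coupled to a stimulatory G protein, and guanylyl cyclases make cyclic GMP in response to nitric oxide or natriuretic peptides. Phosphodiesterases break both messengers down. In arterial smooth muscle the messengers act mainly through protein kinases A and G, which relax the cell by lowering calcium and the calcium sensitivity of the contractile proteins.

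The libraries held 62632273 to 82118717 reads over the listed genes. Deviations from the group mean moved together in libraries of the same experiment (r = 0.879, 0.868 and 0.734 across genes), so differences were tested within experiments, with the test without pairing beside them. Markers of smooth muscle, such as Acta2 and Myh11, were abundant, and the sum over 8 of them was 190737 to 272661 normalized counts with TWEAK and 319341 to 377086 with vehicle. The groups did not overlap (exact permutation test, two-sided p = 0.1, the smallest that 3 against 3 allows), and within experiments 7 of the 8 markers fell while Des, the muscle intermediate filament desmin, rose by 0.96 on the log2 scale (limma, adjusted p = 0.00712). Macrophage and endothelial markers differed widely among the experiments. The sum over 7 macrophage markers was 47160, 7822 and 3146 normalized counts with TWEAK in experiments 1, 2 and 3 and 48539, 8028 and 2889 with vehicle. The sum over 8 endothelial markers was 8813, 64897 and 39619 with TWEAK and 9790, 76768 and 45904 with vehicle. None of these 15 macrophage and endothelial genes was called within experiments by limma, while 5 had an unadjusted p under 0.05 and the authors' deposited table called 1. The sum over 6 adventitial fibroblast markers was 33099, 94380 and 81340 with TWEAK and 26750, 60997 and 72388 with vehicle, with 2 genes called upward and 1 downward. Of 4 Schwann cell markers 1 was called, downward, and of 5 adipocyte markers only Fabp4 was measured. In bulk RNA, fewer cells of a type and less RNA per cell cannot be told apart.

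Within experiments, 7 of the 43 members passed an adjusted p of 0.05 (limma with the experiment as a block, Benjamini-Hochberg over all 14927 genes). This was 16.3% of the members, beside 13.7% of all listed genes, so the share of members that changed was near the background. Pde1b and Pde2a rose, beside 8.11% of all genes called upward. Adcy5, Adcy1, Gucy1a2, Pde8b and Prkg1 fell, beside 5.55% of all genes called downward. The median log2 fold change was -0.08 over the members and 0.02 over all genes. Without pairing, limma called 0 of the 43 members, beside 0.0201% of all genes, and 3 members (beside 9.91% of all genes) had an unadjusted p under 0.05. Within experiments, 15 members did, beside 30.3% of all genes. DESeq2 without pairing called 2 of the 43 members, Adcy5 and Pde1b, beside 752 of all 14927 genes. TWEAK and vehicle libraries did not overlap for 8 members (18.6%), beside 16.0% of all genes: 6 lay below (beside 7.42%) and 2 above (beside 8.6%). The authors' deposited table called 10 members, beside 18.1% of its genes: the same 7, together with Pde1a and Prkar2b upward and Prkar1b downward.

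**Figure D1:**
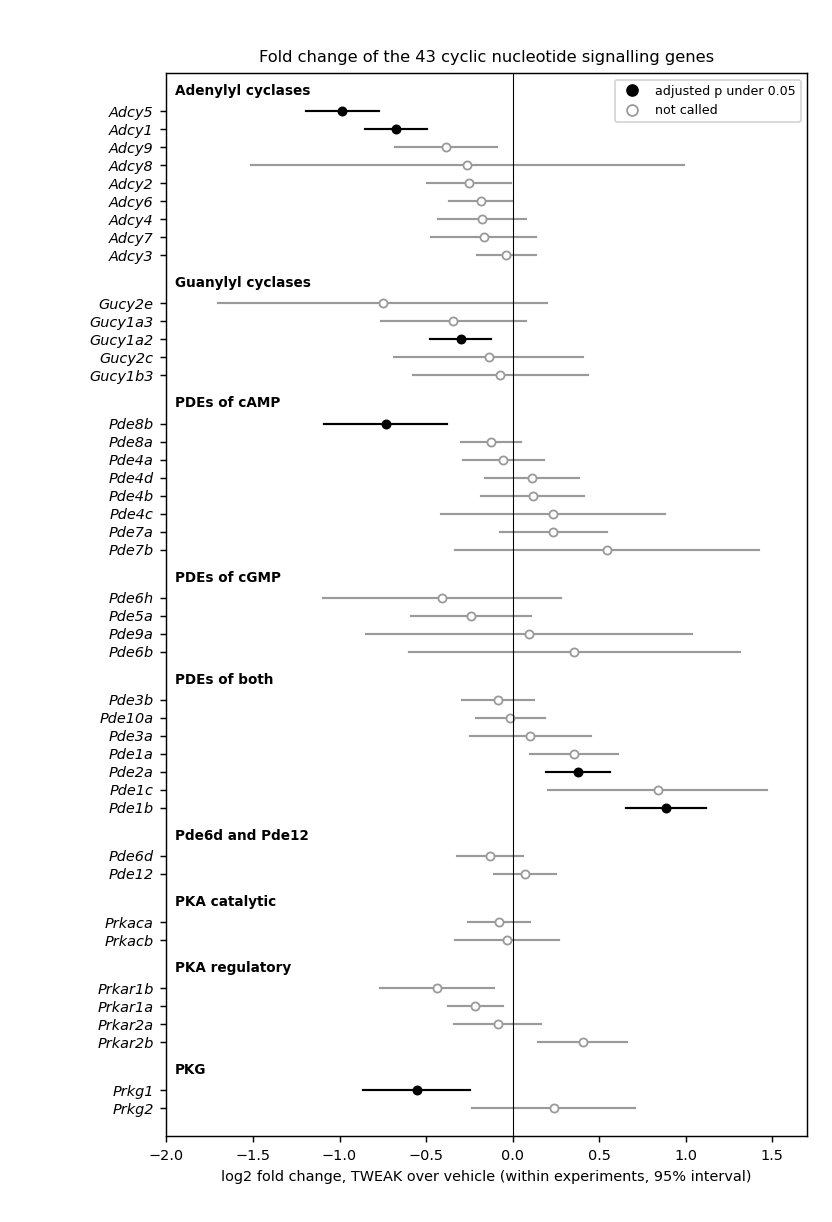
Each point is the log2 fold change of a member, TWEAK over vehicle, with its 95% interval from the fit within experiments; filled points passed an adjusted p of 0.05. All 14 cyclases lie left of 0, and Pde1b and Adcy5 lie farthest to either side among the filled points.

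All 9 adenylyl cyclases had a log2 fold change below 0, between -0.98 and -0.04 with a median of -0.25, beside 47.7% of all genes below 0. The TWEAK library was the lower in every experiment for 7 of the 9, beside 27.0% of all genes; Adcy7 and Adcy8 were the exceptions. Adcy5 and Adcy1 passed the test, both downward, and the other 7 did not. This was 22.2% called, beside 13.7% of all genes called and 5.55% called downward. Each log2 fold change stayed below 0 under every alternative within experiments in which the gene was tested, except that Adcy8, with fewer than 100 reads in each library, lay above 0 without experiment 2.

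Adcy5, an adenylyl cyclase inhibited by calcium, had 902, 757 and 638 normalized counts with TWEAK in experiments 1, 2 and 3, against 1878, 1530 and 1175 with vehicle. Every TWEAK library lay below every vehicle library. The mean was 766 ± 133 with TWEAK and 1528 ± 352 with vehicle (SD, n = 3 each), 1.98-fold lower with TWEAK on the log2(normalized count + 1) scale. The log2 fold change was -0.98 (SE 0.08, 95% interval -1.20 to -0.77; limma within experiments, adjusted p = 0.00383; adjusted p = 0.194 without pairing). The differences within experiments 1, 2 and 3 were -1.06, -1.01 and -0.88.

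Adcy1, which calcium and calmodulin stimulate and which is best known from neurons, had 3233, 1538 and 1863 normalized counts with TWEAK, against 4848, 2553 and 3036 with vehicle. The groups overlapped because experiment 1 was high under both conditions, yet the TWEAK library was the lower in each experiment. The log2 fold change was -0.67 (SE 0.07; limma within experiments, adjusted p = 0.00602; adjusted p = 0.700 without pairing), a 1.59-fold lower level with differences of -0.58, -0.73 and -0.70. Adcy5 and Adcy1 kept their calls when any 1 experiment was left out. The adjusted p was then at most 0.0400 for Adcy5 and 0.0480 for Adcy1 (limma). All fits without 1 experiment hold few libraries and lean on variance pooled across genes. Their p-values were larger or smaller than those with all experiments, depending on the experiment left out, and the reason was not tested. For Adcy5 the adjusted p was 0.00383 with all experiments (limma within experiments). It was 0.0400 without experiment 1, 4.13e-08 without experiment 2 and 0.0212 without experiment 3.

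Promoter windows are shown for the 3 members whose calls held in every alternative within experiments, Adcy5, Adcy1 and Pde1b, since these are the changes least dependent on the processing. Each runs from 250 bases before to 50 after an annotated RefSeq gene start on GRCm38.p6, plus strand, 5′ to 3′. The windows are chr16:35154614-35154913 for Adcy5, chr11:7063183-7063482 for Adcy1 and chr15:103502784-103503083 for the most upstream of the 3 annotated Pde1b starts. Capitals mark matches to GGGNNNNNCC, a loose form of the kappaB motif bound by the NF-kappaB factors that TWEAK is known to activate.
Adcy5: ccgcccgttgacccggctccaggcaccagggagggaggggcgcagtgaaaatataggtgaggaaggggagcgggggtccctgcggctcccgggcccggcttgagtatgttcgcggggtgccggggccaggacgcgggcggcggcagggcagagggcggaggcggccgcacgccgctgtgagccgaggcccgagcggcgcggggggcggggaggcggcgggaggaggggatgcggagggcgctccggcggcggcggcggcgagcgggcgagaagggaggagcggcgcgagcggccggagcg
Adcy1: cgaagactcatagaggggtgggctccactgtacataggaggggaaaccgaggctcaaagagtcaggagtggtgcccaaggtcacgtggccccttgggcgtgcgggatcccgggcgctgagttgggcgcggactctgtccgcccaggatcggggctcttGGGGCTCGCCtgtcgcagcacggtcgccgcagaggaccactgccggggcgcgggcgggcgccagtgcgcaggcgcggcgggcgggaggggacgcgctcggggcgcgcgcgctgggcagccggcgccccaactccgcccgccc
Pde1b: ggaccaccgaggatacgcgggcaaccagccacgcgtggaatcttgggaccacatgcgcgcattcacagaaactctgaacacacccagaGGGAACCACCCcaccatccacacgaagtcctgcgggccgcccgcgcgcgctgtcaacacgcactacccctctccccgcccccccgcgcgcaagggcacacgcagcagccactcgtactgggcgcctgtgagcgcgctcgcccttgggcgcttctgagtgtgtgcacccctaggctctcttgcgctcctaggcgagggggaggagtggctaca
The Adcy5 window held no match, the Adcy1 window 1 match and the Pde1b window 2 overlapping matches. On both strands the letters occurred in 50.8% of the 32851 windows of that length, and at least 1 window of 25 of the 35 members with a window held them. The cyclic AMP response element TGACGTCA occurred in 1.79% of windows and, among members, in those of Prkar1a alone. Its core TGACG, which lies inside that element, occurred in 20.8% of windows and for 17 of the 35 members, and in none of the printed sequences. A match describes letters only, and a gene with several windows had several chances of one.

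Adcy9 and Adcy6 did not pass the test although their groups did not overlap. Adcy9, the adenylyl cyclase least sensitive to forskolin, had 833, 873 and 844 normalized counts with TWEAK, against 1317, 1055 and 983 with vehicle. Its log2 fold change was -0.38 (SE 0.12; limma within experiments, adjusted p = 0.0918), and it was -0.25 without experiment 1 (adjusted p = 0.273), -0.44 without experiment 2 (adjusted p = 0.00645) and -0.47 without experiment 3 (adjusted p = 0.224). Adcy6, a close relative of Adcy5, had 9791, 8910 and 8733 normalized counts with TWEAK, against 10246, 10819 and 10065 with vehicle, a log2 fold change of -0.18 (SE 0.07, adjusted p = 0.161).

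Adcy6 was also the most abundant adenylyl cyclase per length of transcript, at 1515 normalized counts per kilobase with TWEAK and 1719 with vehicle. Adcy7 followed at 1231 with TWEAK and 1378 with vehicle, then Adcy3 at 597 and 612. Adcy5 and Adcy1, which fell, were minor on this scale, at 109 and 180 normalized counts per kilobase with TWEAK and 218 and 284 with vehicle. Summed over the 9 adenylyl cyclases, the level per kilobase was 4609, 4384 and 3995 with TWEAK and 5236, 5062 and 4870 with vehicle. Every TWEAK sum was below every vehicle sum. The remaining log2 fold changes were -0.25 for Adcy2, -0.18 for Adcy4, -0.17 for Adcy7 and -0.04 for Adcy3, and Adcy8 (-0.26, SE 0.49) was too low to resolve. Adcy7 was called without experiment 2 (log2 fold change -0.29, adjusted p = 0.0459) and was -0.21 without experiment 1 and -0.01 without experiment 3, neither called.

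**Figure D2:**
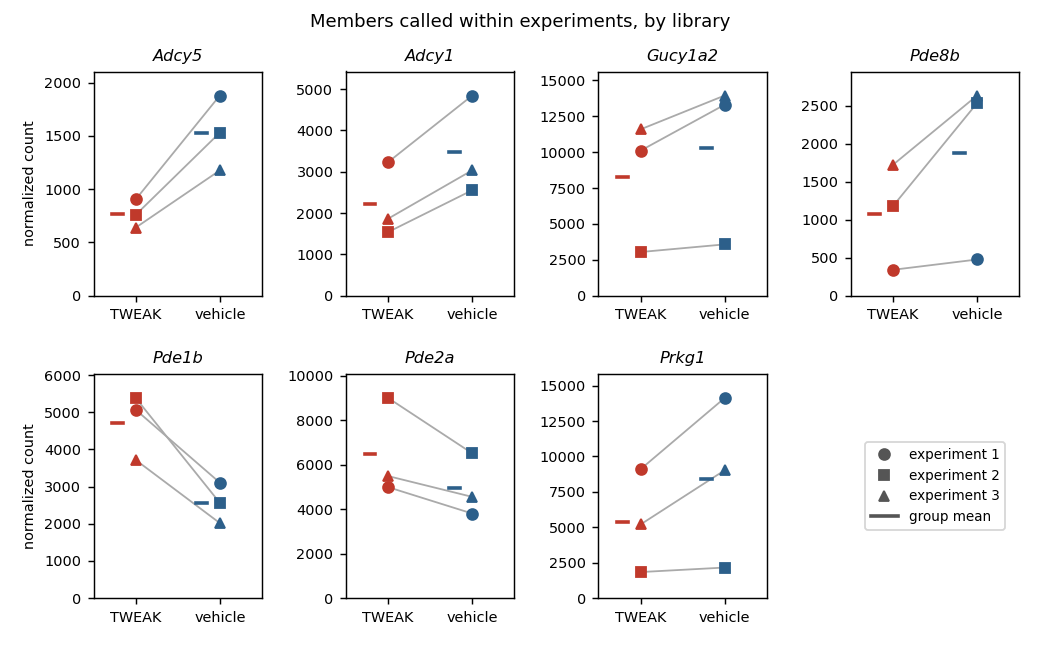
Normalized counts of the 7 members called within experiments, 1 point per library with TWEAK left and vehicle right; lines join the 2 libraries of an experiment and short bars are group means. The lines slope the same way within each gene, while experiment 2 lies far below the others for Gucy1a2 and Prkg1 and experiment 1 far below for Pde8b.

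Of the 5 guanylyl cyclases 1 fell, beside 5.55% of all genes called downward, and 4 did not pass. Gucy1a2 encodes the alpha-2 subunit of soluble guanylyl cyclase, the nitric oxide receptor. It had 10106, 3035 and 11591 normalized counts with TWEAK, against 13313, 3568 and 13953 with vehicle. Experiment 2 was low under both conditions and the groups overlapped, while the TWEAK library was lower in each experiment. This was a log2 fold change of -0.30 (SE 0.07; limma within experiments, adjusted p = 0.0480; adjusted p = 0.999 without pairing), a 1.23-fold lower level. The call was lost without experiment 1 (adjusted p = 0.188) and without experiment 3 (adjusted p = 0.274), and also with TMM scaling, with limma-voom and with no mean-variance trend.

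The other soluble subunits did not pass. Gucy1b3, the obligate beta-1 subunit now named Gucy1b1, had differences of -0.14, 0.49 and -0.56 in experiments 1, 2 and 3, and Gucy1a3, the alpha-1 subunit now named Gucy1a1, of -0.34, 0.08 and -0.77. Experiment 2 went the other way for both. Without it, their log2 fold changes were -0.35 (limma, adjusted p = 0.0201) for Gucy1b3 and -0.56 (adjusted p = 8.71e-04) for Gucy1a3. Neither was called without experiment 1 (-0.04 for Gucy1b3 and -0.34 for Gucy1a3) or without experiment 3 (0.17 and -0.13). Per kilobase, Gucy1a2 was the most abundant soluble subunit, at 3675 normalized counts per kilobase with TWEAK and 4582 with vehicle. It made up 72.8%, 56.1% and 81.7% of the summed level of the 3 subunits with TWEAK and 75.4%, 65.8% and 77.8% with vehicle. These shares depend on the transcript lengths used, which were 2243 bases for Gucy1a2, 3223 for Gucy1b3 and 4710 for Gucy1a3. Before division by length Gucy1a2 was also the highest, with a mean of 8244 normalized counts with TWEAK and 10278 with vehicle. Gucy1b3 followed at 3062 and 3401.

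Of the membrane guanylyl cyclases, Gucy2e, which is known from photoreceptors, was near the bottom of the table, with 11.3, 13.5 and 18.9 normalized counts with TWEAK and 34.4, 19.8 and 21.9 with vehicle. Its groups did not overlap, but the log2 fold change of -0.75 had an SE of 0.38 and an adjusted p of 0.249 (limma within experiments). Gucy2c, the receptor of the gut peptide guanylin, had 397, 122 and 204 normalized counts with TWEAK and 294, 154 and 294 with vehicle. It was higher with TWEAK in experiment 1 only, and its log2 fold change was -0.14 (adjusted p = 0.695). Across all 14 cyclases the median log2 fold change was -0.26, and 3 fell, beside 5.55% of all genes called in that direction.

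Among the 21 phosphodiesterases 2 rose (beside 8.11% of all genes), 1 fell (beside 5.55%) and 18 missed the threshold; their log2 fold changes had a median of 0.10. With the GC content and length correction 2 rose and 4 fell, namely Pde3b, Pde5a, Pde8a and Pde8b. That correction called far more genes in general, 1819 of 14787 upward and 2468 downward. The phosphodiesterases that rose, Pde1b and Pde2a, belong to the families that break down both messengers. The 7 members of those families had a median of 0.36, the 8 of the cyclic AMP families Pde4, Pde7 and Pde8 a median of 0.11, and the 4 of the cyclic GMP families a median of -0.07.

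Pde1b is a phosphodiesterase that calcium and calmodulin activate. It had 5070, 5387 and 3718 normalized counts with TWEAK in experiments 1, 2 and 3, against 3106, 2563 and 2017 with vehicle. Every TWEAK library lay above every vehicle library. The mean was 4725 ± 886 with TWEAK and 2562 ± 544 with vehicle (SD, n = 3 each), 1.85-fold higher with TWEAK. The log2 fold change was 0.89 (SE 0.09; limma within experiments, adjusted p = 0.00582; adjusted p = 0.222 without pairing), with differences of 0.71, 1.07 and 0.88. The call held without any 1 experiment, with an adjusted p of at most 0.0356. Per kilobase, Pde1b was 20.2%, 16.7% and 11.5% of the summed level of the cyclic nucleotide phosphodiesterases with TWEAK and 12.9%, 10.2% and 6.7% with vehicle. Its share was thus higher with TWEAK in each experiment, and the groups overlapped.

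The other PDE1 genes had positive differences in every experiment without passing the test; 6 members in all were higher in every experiment, beside 28.2% of all genes. Pde1a had 3061, 5228 and 6353 normalized counts with TWEAK and 2788, 3524 and 4940 with vehicle, which gave 0.36 on the log2 scale (SE 0.10; limma within experiments, adjusted p = 0.0807). It was 0.47 without experiment 1 (adjusted p = 0.0933), 0.25 without experiment 2 (adjusted p = 0.0174) and 0.35 without experiment 3 (adjusted p = 0.320), and the authors' deposited table gave 0.36 with an adjusted p of 0.031. Pde1c was rare, at 45.2 ± 17.4 normalized counts with TWEAK and 24.8 ± 9.33 with vehicle (SD, n = 3 each), and its log2 fold change of 0.84 had an SE of 0.25 and an adjusted p of 0.0905 by limma.

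Pde2a is stimulated by cyclic GMP to break down cyclic AMP and was the most abundant phosphodiesterase per kilobase by the mean over all 6 libraries, at 1540 normalized counts per kilobase with TWEAK and 1175 with vehicle. With vehicle alone Pde6d was higher, at 1318, and in single libraries Pde5a, Pde1b or Pde1a also exceeded Pde2a. It had 4991, 9007 and 5490 normalized counts with TWEAK, against 3803, 6514 and 4553 with vehicle. Experiment 2 was the highest under both conditions, and the TWEAK library was the higher in each experiment. Within experiments the log2 fold change was 0.38 (SE 0.07; limma within experiments, adjusted p = 0.0297; adjusted p = 0.887 without pairing), a 1.30-fold higher level. The call was lost without experiment 1 (adjusted p = 0.131), without experiment 3 (adjusted p = 0.143) and with no mean-variance trend (adjusted p = 0.0757). Pde2a is also expressed by endothelial cells, whose marker sum was likewise highest in experiment 2. Of these markers, Vwf was highest in experiment 1 and Tek and Emcn in experiment 3. The part of endothelial cells in the Pde2a level was not tested.

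Pde8b, a cyclic AMP phosphodiesterase of high affinity, was the only phosphodiesterase called lower. It had 339, 1179 and 1724 normalized counts with TWEAK, against 475, 2538 and 2637 with vehicle. Experiment 1 was several times lower than the others under both conditions. Its log2 fold change was -0.73 (SE 0.14; limma within experiments, adjusted p = 0.0296; adjusted p = 0.993 without pairing), a 1.66-fold lower level, with differences of -0.49, -1.10 and -0.61. The call was lost without experiment 1 (adjusted p = 0.0748), without experiment 3 (adjusted p = 0.107) and with no mean-variance trend (adjusted p = 0.0705). Its relative Pde8a had a fold change of -0.13 on the log2 scale (adjusted p = 0.276).

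Pde3a, Pde3b and Pde5a did not pass. Pde3a, whose product cyclic GMP inhibits, had a log2 fold change of 0.10, and Pde3b one of -0.08. Pde5a, the cyclic GMP phosphodiesterase that sildenafil inhibits, had 9306, 3578 and 7053 normalized counts with TWEAK and 12106, 3237 and 9883 with vehicle. It was lower with TWEAK in experiments 1 and 3 and higher in experiment 2, for a log2 fold change of -0.24 (SE 0.14; limma within experiments, adjusted p = 0.295). Leaving out experiment 2 gave -0.43 with an adjusted p of 1.75e-05 (limma), which leans on variance pooled across genes as few libraries remain. Leaving out experiment 1 or 3 gave -0.17 and -0.12 with no call. The PDE4 genes, the main cyclic AMP phosphodiesterases of immune cells, had log2 fold changes of -0.05 for Pde4a, 0.12 for Pde4b, 0.23 for Pde4c and 0.11 for Pde4d, with adjusted p-values of 0.531 to 0.725.

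The remaining phosphodiesterases were split between both directions. Pde7b had differences of -0.48, 0.80 and 1.31 in experiments 1, 2 and 3, and Pde7a of -0.03, 0.54 and 0.19, so that experiment 1 alone went downward. Pde9a, specific for cyclic GMP, had 12.2, 224 and 100.0 normalized counts with TWEAK and 20.7, 236 and 47.2 with vehicle, an order set by the experiment. Pde10a had a log2 fold change of -0.01, and the photoreceptor genes Pde6b (0.36) and Pde6h (-0.41) were both under 50 normalized counts in every library. Pde6d, a chaperone of prenylated proteins, and Pde12, a mitochondrial RNA exonuclease, break down no cyclic nucleotide; their log2 fold changes were -0.13 and 0.07.

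**Figure D3:**
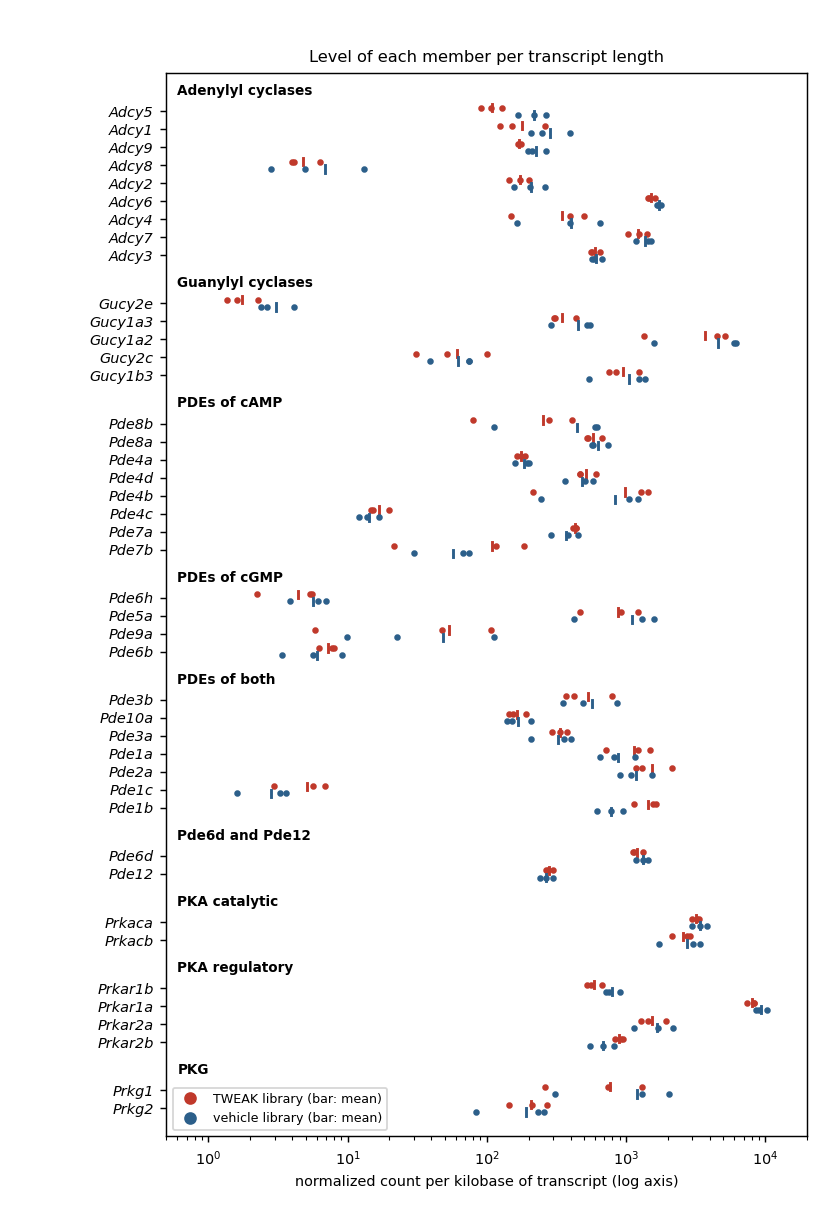
Level of each member in normalized counts per kilobase of transcript on a log axis, with 1 point per library, TWEAK above vehicle in each row, and a bar at each group mean. Prkar1a is the most abundant member, Adcy6 leads the adenylyl cyclases and Gucy1a2 the guanylyl cyclases in both groups, while among phosphodiesterases Pde2a leads with TWEAK and Pde6d with vehicle.

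Of the 8 kinase genes 1 fell (12.5% called, beside 13.7% of all genes) and 7 did not pass. Of all genes 5.55% were called downward. The median log2 fold change of the kinase genes was -0.08. Prkg1, the cyclic GMP dependent kinase of smooth muscle, had 9098, 1832 and 5196 normalized counts with TWEAK, against 14134, 2152 and 9027 with vehicle. The experiments differed more than the treatments, with experiment 2 lowest, and the TWEAK library was lower in each. The log2 fold change was -0.55 (SE 0.12; limma within experiments, adjusted p = 0.0431; adjusted p = 0.999 without pairing), a 1.47-fold lower level with differences of -0.64, -0.23 and -0.80. The call was lost without experiment 1 (adjusted p = 0.184), without experiment 3 (adjusted p = 0.216), with TMM scaling and with no mean-variance trend. Smooth muscle markers, whose sum was lower in every TWEAK library, moved with it; their part in its level was not tested. Prkg2, the other kinase of this family, had a fold change of 0.24 on the log2 scale (adjusted p = 0.437), and Prkg1 was 82.8%, 64.7% and 77.9% of their summed level per kilobase with TWEAK and 88.8%, 78.5% and 84.8% with vehicle.

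The catalytic subunits of protein kinase A showed no called change. Prkaca, the more abundant of them per kilobase by group mean though not in vehicle library 1, had 6820, 7663 and 7429 normalized counts with TWEAK and 6834, 8706 and 7699 with vehicle, a log2 fold change of -0.08 (SE 0.07; limma within experiments, adjusted p = 0.492). Prkacb had a log2 fold change of -0.03, of 0.07 without experiment 1, of -0.20 without experiment 2 (limma, adjusted p = 0.0267) and of 0.03 without experiment 3, so that its sign turned.

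For 3 of the 4 regulatory subunits of protein kinase A the groups did not overlap (75.0%), beside 16.0% of all genes, and none of the 4 passed (3 at an unadjusted p under 0.05, and 2 in the authors' deposited table). Prkar1a, the most abundant of all 43 members at 8034 normalized counts per kilobase with TWEAK and 9351 with vehicle, had 26113, 29430 and 29130 normalized counts with TWEAK and 30324, 31911 and 36317 with vehicle (log2 fold change -0.22, SE 0.06; limma within experiments, adjusted p = 0.0834). Prkar1b had 1768, 1393 and 1477 normalized counts with TWEAK and 2002, 2395 and 1894 with vehicle (log2 fold change -0.44, SE 0.13, adjusted p = 0.0887). Prkar2b went the other way, with 3091, 2799 and 3199 normalized counts with TWEAK and 2757, 1861 and 2326 with vehicle (log2 fold change 0.40, SE 0.10, adjusted p = 0.0595). Each TWEAK library was thus above each vehicle library for Prkar2b and below for Prkar1a and Prkar1b. Without experiment 1, and likewise without experiment 3, none of the 3 was called by limma (adjusted p-values of 0.0726 to 0.419). Without experiment 2 all 3 were called, with adjusted p-values of 0.00324 for Prkar1a, 0.0210 for Prkar1b and 0.00717 for Prkar2b. The authors' deposited table gave adjusted p-values of 0.023 for Prkar1b and 0.014 for Prkar2b. Prkar2b made up 8.4%, 7.5% and 8.4% of the summed regulatory subunits per kilobase with TWEAK and 6.6%, 4.7% and 5.1% with vehicle. Prkar2a had a log2 fold change of -0.09.

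Many of the levels differed among the experiments, about as often for the members as for all genes. By limma's F test, 22 of the 43 members differed among experiments (51.2%), beside 48.6% of all genes. Of the 22, 12 were highest in experiment 1, a share that was not counted for all genes. The ratio of the highest to the lowest experiment was 14.0 for Pde9a, 5.83 for Prkg1, 5.77 for Pde4b, 5.35 for Pde8b and 5.05 for Pde7b. Prkg1, Gucy1a2 and Pde5a were lowest in experiment 2. Pde4b, Pde7b, Pde8b, Pde9a and Adcy4 were lowest in experiment 1. Pde4b, for example, had 926, 6237 and 5538 normalized counts with TWEAK and 1064, 5231 and 4521 with vehicle. The endothelial sum was likewise lowest in experiment 1, and the macrophage sum was highest there; their part in these levels was not tested.

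Experiment 2 also went against the others most often. There, 9 members had a difference opposite in sign to that in experiments 1 and 3, 8 of them being higher with TWEAK in experiment 2 alone: Adcy7, Gucy1a3, Gucy1b3, Pde3a, Pde3b, Pde5a, Prkacb and Prkar2a. The numbers for experiments 1 and 3 were 6 and 5 members. For all genes the share that went against the others only in experiment 2 was 18.6%, beside 16.3% in experiment 1 and 9.83% in experiment 3. The order of the experiments was thus the same for all genes and not particular to the members. Without experiment 2, 18 members were called, 4 upward and 14 downward (41.9% of members, beside 26.1% of all genes). Such calls rest on few libraries and on variance pooled across genes. Without experiment 1, and likewise without experiment 3, 3 were called: Adcy5 and Adcy1 downward and Pde1b upward (beside 4.66% and 4.46% of all genes).

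**Figure D4:**
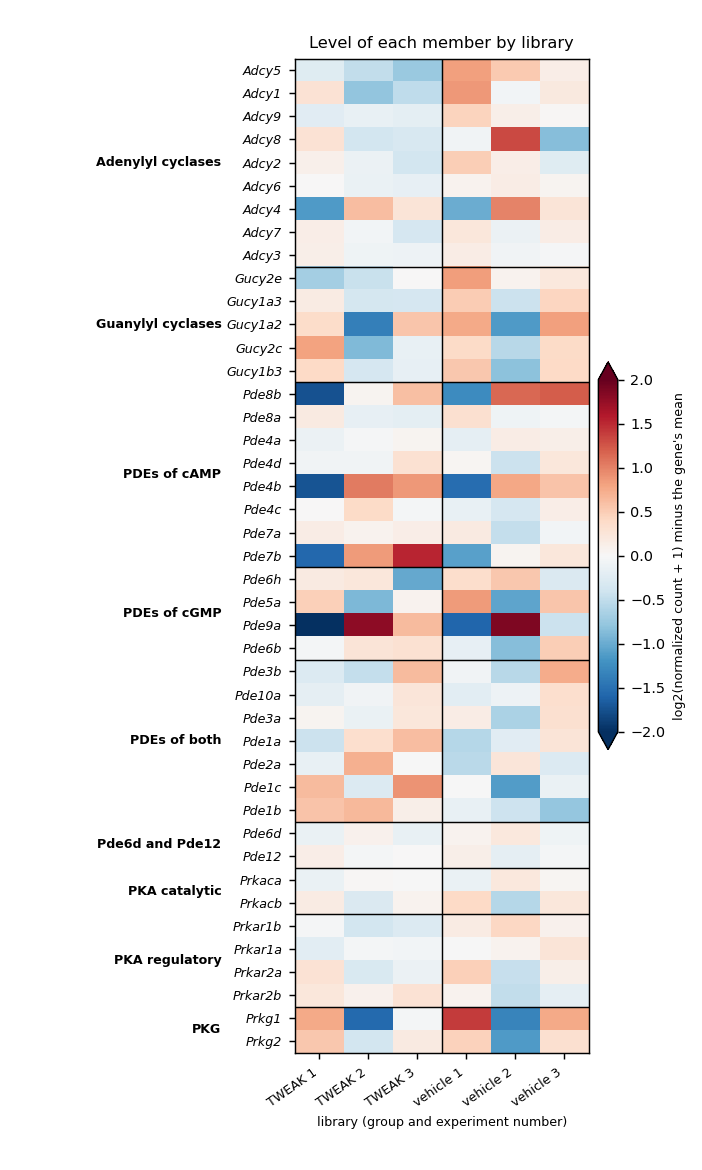
Level of each member in each library, as the log2(normalized count + 1) minus the gene's mean over the 6 libraries, with TWEAK libraries left of vehicle libraries and numbered by experiment. Red is above and blue below the mean; the columns of an experiment resemble each other under both conditions, while Adcy5 and Pde1b differ between TWEAK and vehicle columns.

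Beyond the members, 84 listed genes of the pathway from a fixed list were examined, and 17 passed within experiments (20.2%, beside 13.7% of all genes), 6 upward and 11 downward, with a median log2 fold change of -0.09. Of 18 genes on a list drawn up for receptors that raise cyclic AMP, 3 rose and 2 fell (27.8% called, beside 13.7% of all genes). Besides receptors the list held their partner proteins Ramp1, Ramp2 and Ramp3. Whether S1pr2 or any other listed gene raises cyclic AMP in these cells was not tested. Ptgir, the prostacyclin receptor, had 977, 1894 and 1166 normalized counts with TWEAK and 653, 863 and 608 with vehicle, a log2 fold change of 0.88 (SE 0.13; limma within experiments, adjusted p = 0.0136). Ptger4, a prostaglandin E2 receptor, rose by 0.69 on the log2 scale (adjusted p = 0.0304), and S1pr2, a sphingosine phosphate receptor, by 0.51 (adjusted p = 0.0104). Pth1r, the receptor of parathyroid hormone, had 1400, 1003 and 1038 normalized counts with TWEAK and 2113, 1866 and 1947 with vehicle, and fell by 0.80 on the log2 scale (adjusted p = 0.00726), and Adrb3, a beta-adrenergic receptor, fell by 0.57 (adjusted p = 0.0456). Ptger2, another prostaglandin E2 receptor, did not pass (adjusted p = 0.0735), with 120, 356 and 322 normalized counts with TWEAK and 89.5, 17.9 and 30.0 with vehicle. Its difference was 0.42 in experiment 1 and 4.24 and 3.38 in experiments 2 and 3.

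On the cyclic GMP side none of 5 listed genes for natriuretic peptides, their receptors and nitric oxide synthases passed by limma within experiments (2 at an unadjusted p under 0.05, and 2 in the authors' deposited table). Npr1, the atrial natriuretic peptide receptor and itself a guanylyl cyclase by activity, stood at -0.55 on the log2 scale (adjusted p = 0.0571). Its 104, 782 and 594 normalized counts with TWEAK and 149, 1393 and 730 with vehicle were lowest in experiment 1. The endothelial sum was also lowest there, though the endothelial marker Vwf was highest there. The part of endothelial cells was not tested.

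Downstream, the 12 genes of the CREB family and its coactivators had no call by limma within experiments, with 2 at an unadjusted p under 0.05 and 1 in the authors' deposited table. Of 11 genes known to respond to CREB 4 were called (36.4%, beside 13.7% of all genes). Sik1 rose by 0.88 and Junb by 0.45 on the log2 scale (limma within experiments, adjusted p = 0.00726 and 0.0169). Fos fell by 0.62 and Dusp1 by 0.45 (adjusted p = 0.00887 and 0.0473), so the list had calls in both directions. Of 12 anchoring proteins of protein kinase A 2 were called (16.7%, beside 13.7% of all genes). Akap5 rose by 0.99 (adjusted p = 0.0203) and Akap12 fell by 0.36 (adjusted p = 0.0306). Of 10 genes on a list of smooth muscle substrates of the kinases 4 fell, beside 5.55% of all genes, and 0 were called without pairing (4 at an unadjusted p under 0.05). These were Csrp1, a LIM domain protein, by 0.64 (adjusted p = 0.0109), Hspb6, a small heat shock protein, by 0.81 (adjusted p = 0.0208), Rhoa by 0.33 (adjusted p = 0.0245) and Vasp by 0.33 (adjusted p = 0.0377). Ppp1r14a, the smooth muscle inhibitor of myosin phosphatase, had 1189, 551 and 597 normalized counts with TWEAK and 2267, 1162 and 1050 with vehicle, and fell by 0.94 (adjusted p = 0.00500). Several of these genes are themselves highly expressed in smooth muscle, and 7 of the 8 smooth muscle markers fell while Des rose; their part in these changes was not tested. Popdc2, a cyclic AMP binding membrane protein, was the single call among 9 other effectors (11.1%, beside 13.7% of all genes). Its level fell by 0.69 (adjusted p = 0.0249). None of the 3 inhibitors of protein kinase A and neither export pump was called by limma within experiments, with 2 inhibitors and 0 pumps at an unadjusted p under 0.05 and none of the 5 called in the authors' deposited table.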

How the data were processed

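RNA was sequenced from 3 TWEAK and 3 vehicle libraries of cultured mouse aortic smooth muscle cells. The authors deposited 1 table with a signal column per library (normalized counts, that is reads scaled by a size factor for each library) and, per the file headers, their mean, log2 fold change with its standard error, Wald statistic (a score), p-value and adjusted p-value. DESeq2 was used, per the submitters' processing notes, with no version named. Not given in the sources used here: aligner, counter, genome build, annotation and use of strand. Reads of overlapping or antisense genes can therefore not be separated. Values within a column are whole multiples of 1 step: 100% came out whole within 0.01 of a read, which gave 62632273 to 82118717 reads per library over the listed genes. Closest libraries still differed by 90.7 times counting noise (chi-square per degree of freedom), so none was counted as a copy.

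Normalized counts were tested as log2(value + 1) with limma 3.58.1 in R 4.3.3 (trend and robust options) over all 14927 genes, with Benjamini-Hochberg adjustment; fold changes on this scale understate low genes. The planned test was unpaired, with the experiment number as a block as its alternative. Libraries with the same number correlated in their deviations from the group mean (r = 0.879, 0.868 and 0.734) and others did not (r of -0.76 to -0.13), so the numbers pair the libraries and values within experiments are given first. The submitters' title numbers were taken as the experiment numbers of the table's columns. Alternatives were other pseudocounts, filters and scalings, edgeR 4.0.16, limma-voom and DESeq2 1.42.0 on recovered reads, a correction for GC content and length, and leaving out libraries or experiments. The fits were tested on simulated data. Levels between genes are per kilobase of the longest protein-coding GENCODE M21 transcript, which 14787 genes (99.1%) and all 43 members had. Promoter windows from RefSeq existed for 35 members. Full values are given for 14 members by rule: those called, those whose groups did not overlap and the most abundant of each class. Other members and pathway genes given by library were chosen after their values were seen. Members, gene lists and markers were chosen with earlier results of these data known.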

Additional observations from a re-analysis of the deposited data

How the results depend on the processing

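The replicate block decided most calls: 3 genes were called without it and 2039 with it, and members called were 0 in each class without it and 3 cyclases, 3 phosphodiesterases and 1 kinase with it. Without the block, the 3 genes became 5 with quantile normalization, 1 with cyclic loess, 7 with no mean-variance trend, 1 with edgeR and upper quartile scaling, 752 with DESeq2 (1 cyclase and 1 phosphodiesterase among them) and 0 to 2 when 1 library was left out. Within experiments, 59.3% of the 2039 called genes were higher with TWEAK. The count was 3132 with quantile normalization (49.7% higher), 1225 with no trend (67.0%), 4287 with the GC content and length correction (42.4%), and 666 to 3902 without 1 experiment (49.5% to 76.9%). Cyclases called were 6 with quantile normalization, 6 with the GC and length correction and 2 to 7 without 1 experiment, and phosphodiesterases were 6 with that correction (2 higher and 4 lower) and 1 to 5 without 1 experiment. Kinases called were 3 with quantile normalization, cyclic loess or DESeq2, 4 with edgeR and upper quartile scaling, 5 with the GC and length correction, 0 with TMM in limma or edgeR or with no trend, and 0 to 6 without 1 experiment. Members differing among experiments were 22, and 7 to 20 without 1 experiment. Adcy5, Adcy1 and Pde1b kept direction and call in 15 of 16 alternatives each and lost the call unpaired. Pde2a and Pde8b kept theirs in 12, Prkg1 in 10 and Gucy1a2 in 9, and none changed sign. The causes were not tested. With 3 experiments, the intervals of the 6 members under 100 mean normalized counts are wide and small changes in them were not detectable at this depth.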
